A study of Homo sapiens with 6 samples.

Results

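The PHLPP phosphatases and core members of the PI3K-AKT pathway were examined in HCT116 cells given miR-224. Of 7 genes on the list (PHLPP1, PHLPP2, AKT1, AKT2, PDPK1, PIK3CA and PIK3R1), 6 were measured by 21 probe sets annotated with only that gene symbol, out of 54613 probe sets other than array controls, which stand for 19775 named genes in all. PHLPP1 and PHLPP2 had 2 probe sets each, AKT1 had 1, AKT2 had 7, PDPK1 had 6 and PIK3R1 had 3. PIK3CA had 0 probe sets annotated with only its symbol, so it was not analysed here. HCT116 is an established human colon carcinoma line, and the same line was used for every sample. Cells were transfected at 50 nM with control oligos (control group) or with precursor molecules of miR-224 (miR-224 group) and collected 24 h later for total RNA. There were 3 arrays in each group, numbered in the titles and described as pairs from 3 independent experiments, so every difference below was taken within an experiment. Uptake of the oligos and the level of miR-224 itself were not analysed here.

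Class I PI3K, made of a catalytic subunit (such as that encoded by PIK3CA) and a regulatory subunit (such as p85alpha, encoded by PIK3R1), phosphorylates a membrane lipid in response to growth factor receptors. The lipid recruits PDPK1 and the AKT kinases, PDPK1 phosphorylates the activation loop of AKT, mTOR complex 2 phosphorylates its hydrophobic motif, and AKT then promotes survival, growth and glucose use. PHLPP1 and PHLPP2 are phosphatases of the PPM family that remove the hydrophobic motif phosphate and so lower AKT activity, and loss of PHLPP has been described in colon cancer. Both PHLPP genes have been reported as direct targets of miR-224 in colorectal cancer cells, which is the question these arrays bear on at the level of mRNA. Arrays of mRNA show neither translation nor phosphorylation.

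The mature arms of miR-224 are printed because they are the agent of the comparison. They are written 5′ to 3′, with the seed, bases 2 to 8, in capitals, and come from RefSeq (GRCh38.p14). The transfected molecule is named in the labels only as a precursor.

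hsa-miR-224-5p: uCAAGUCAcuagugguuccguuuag

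hsa-miR-224-3p: aAAAUGGUgcccuagugacuaca

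The 5p arm, of 25 bases, lies at chrX:151958628-151958652 and the 3p arm, of 23 bases, at chrX:151958584-151958606, both on the minus strand within the span of GABRE. The seeds of the arms differ, and 0 other mature human microRNA names in the RefSeq table share either of them. Sites for these seeds in the transcripts of the genes below were not searched.

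The values are log2 expression levels per probe set. A probe set is called bright where its mean over the 6 arrays reached the median of all probe sets, 3.48, and dim below it. No detection calls were used, and the order of levels of different probe sets is not an order of transcript amounts. Both arrays of experiment 1 stood apart from the other 4 along the first principal component, which held 77.8% of the variance. In experiment 1 the array's control probe set for the 5′ part of actin read 4.28 on average against 12.4 in experiments 2 and 3, while that for the 3′ part read 12.5 in both. Those for GAPDH read 4.10 against 13.0 at the 5′ part and 12.8 against 13.0 at the 3′ part. The middle parts read 6.74 against 12.5 for actin and 9.95 against 13.1 for GAPDH. Of 12 epithelial and colon markers, 10 were bright, with mean levels from 2.87 (LGR5) to 12.3 (KRT18). EPCAM and KRT8 stood at 10.4 and 9.80, MUC2 at 4.13, and KRT20 and LGR5 were dim. Of 14 measured markers of other cells, 8 were bright, with mean levels from 2.21 (ALB) to 5.96 (COL1A1). The leukocyte gene PTPRC (2.56) and the endothelial gene CDH5 (2.32) were dim, while the endothelial gene PECAM1 (4.47) and the smooth muscle gene ACTA2 (5.60) were bright.

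None of the 21 probe sets differed between miR-224 and control cells beyond the test (limma with experiment as a block, Benjamini-Hochberg over all 54613 probe sets, lowest adjusted p = 0.429). Over all probe sets the same test also called 0 (0%). The differences of the 21 ran from -0.28 to 0.41 with a median of 0.04, against a median of 0.005 over all probe sets. PHLPP1 had the lowest of them, at its bright probe set, and PIK3R1 the highest, at 1 of its 3. At an unadjusted p under 0.05 there were 2 of 21 (9.52%), 1 lower and 1 higher, and the share over all probe sets was 9.8% (5.39% lower, 4.41% higher). Of the 21, 0 also passed with an intensity trend and robust variances, where 28 of all probe sets did (0.0513%), and 0 with experiments 2 and 3 alone, where 137 did (0.251%).

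The direction of the 21 was mixed. The mean was lower in miR-224 cells for 9 probe sets (42.9%), against 48.5% of all probe sets. Only 1 was lower in all 3 experiments (background 14.8%) and 2 were higher in all 3 (background 16.5%). For 0 of the 21 did the 3 miR-224 arrays lie wholly below or above the 3 control arrays, where 2.64% of all probe sets did so downward and 4.02% upward. With 3 pairs, an exact permutation test over pairs cannot give a two-sided p under 0.25, so single values carry no separate permutation test.

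**Figure D1:**
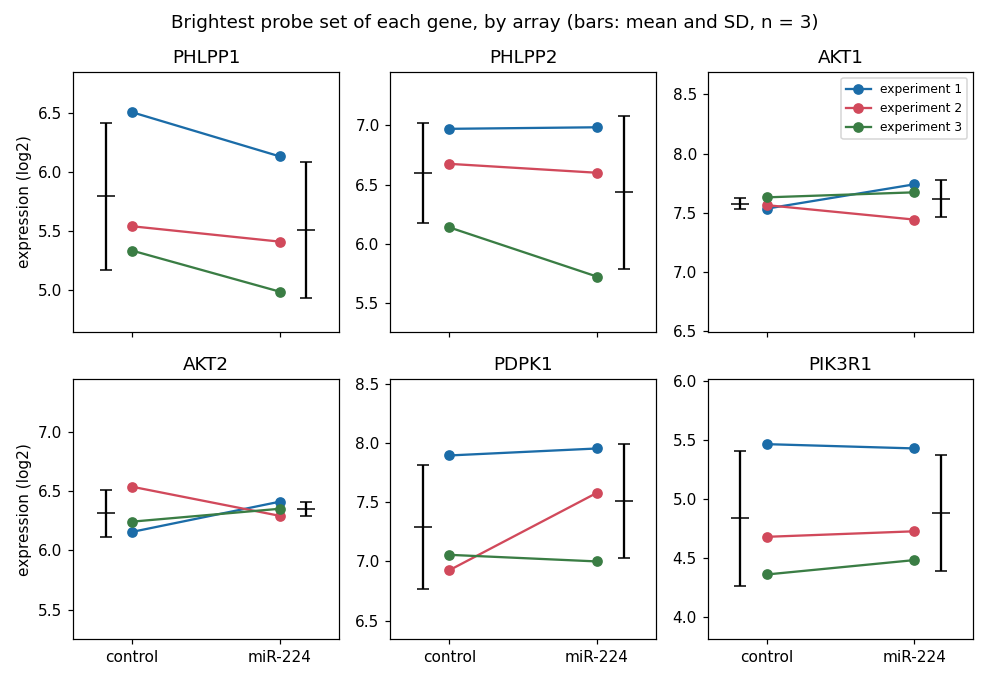
Log2 expression of the brightest probe set of each of the 6 measured genes (y axis, each panel spanning the same log2 range) in control and miR-224 cells. Points are arrays, lines join the arrays of an experiment, and black bars give the mean and SD of 3 arrays. PHLPP1 was lower with miR-224 in each experiment, by 0.37, 0.13 and 0.35, while the other genes did not move one way in all 3.

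PHLPP1, which dephosphorylates AKT and other kinases with a similar motif, read 6.51, 5.54 and 5.34 in control cells of experiments 1, 2 and 3 at probe set 212719_at. In miR-224 cells it read 6.13, 5.41 and 4.99. It was thus lower with miR-224 in every experiment, yet the groups overlapped, and experiment 1 was high in both. Without experiment 1 they still overlapped. The differences were -0.37, -0.13 and -0.35, and the fitted difference was -0.28 ± 0.11 (SE), with a 95% interval of -0.53 to -0.04. On a linear scale this is a ratio of 0.822 (0.693 to 0.974). It missed the threshold (limma unadjusted p = 0.0284, adjusted p = 0.447). Without experiment 1 the difference was -0.24 ± 0.14 (adjusted p = 0.604).

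The other PHLPP1 probe set, 210919_at, was dim. It read 1.87, 1.87 and 2.14 in control cells and 1.79, 1.93 and 2.02 in miR-224 cells. Its difference was -0.04 ± 0.10, with experiments of either sign, so it gave no second reading of the lower value at 212719_at. Whether it reads the PHLPP1 transcript of these cells was not tested.

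PHLPP2, the paralogue with the same activity toward AKT, read 6.97, 6.67 and 6.14 in control cells at its bright probe set, 213407_at. In miR-224 cells it read 6.98, 6.60 and 5.72. The arrays of experiment 3 were farthest apart, with miR-224 lower, and those of experiment 1 were nearly equal. The differences were 0.01, -0.08 and -0.42, and the fitted value was -0.16 ± 0.12, with an interval of -0.43 to 0.11 (limma adjusted p = 0.72). The ratio was 0.895 (0.741 to 1.08).

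At the dim PHLPP2 probe set, 214944_at, the control arrays read 3.01, 3.14 and 2.40 and the miR-224 arrays 2.90, 2.96 and 3.09. The differences of -0.11, -0.19 and 0.69 had no common sign, and the fitted value was 0.13 ± 0.17. Its sign turned without experiment 3, where it was -0.15. For the bright probe sets of both PHLPP genes the lower bounds of the intervals, -0.53 and -0.43, lie above -1. That is the log2 size of a fall to 50% of the control level. Over all probe sets, 54274 of 54613 intervals lay wholly within 1 of 0. Without experiment as a block, the lower bounds for PHLPP1 and PHLPP2 were -1.30 and -1.08.

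**Figure D2:**
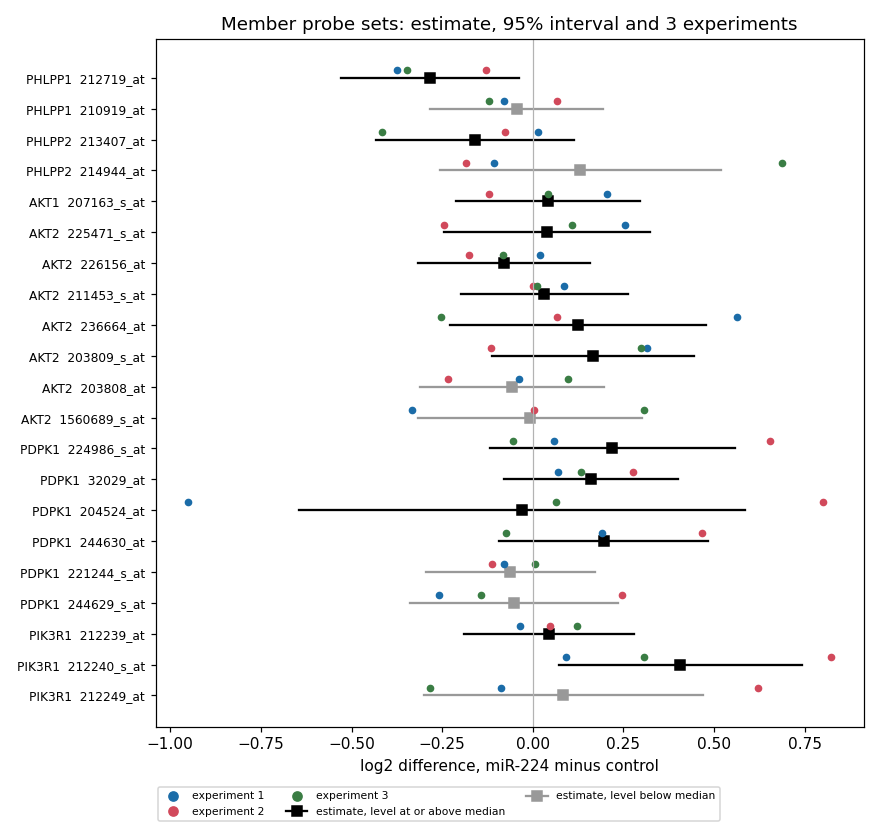
Log2 difference, miR-224 minus control, for each of the 21 probe sets (rows, with gene and probe set name). Squares and lines are the fitted value and its 95% interval, black for bright and grey for dim probe sets, and coloured points are experiments 1, 2 and 3. The interval leaves out 0 for PHLPP1 212719_at (-0.53 to -0.04) and PIK3R1 212240_s_at (0.07 to 0.74), without adjustment for the number of probe sets.

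AKT1, the broadly expressed AKT kinase, was measured by a single probe set, 207163_s_at. It read 7.53, 7.56 and 7.63 in control cells and 7.74, 7.44 and 7.67 in miR-224 cells. The control arrays were close together, and the miR-224 arrays lay on either side of them. The fitted difference was 0.04 ± 0.11, with an interval of -0.21 to 0.29 (limma adjusted p = 0.937).

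AKT2, the isoform tied most closely to insulin-driven glucose uptake, had 5 bright and 2 dim probe sets. The brightest, 225471_s_at, read 6.16, 6.54 and 6.24 in control cells and 6.41, 6.29 and 6.35 in miR-224 cells. The experiments disagreed in sign, at 0.26, -0.25 and 0.11, and the fitted difference was 0.04 ± 0.12 with an interval of -0.24 to 0.32. Over the 7 probe sets, which share a gene and are not replicates, the differences ran from -0.08 (226156_at) to 0.17 (203809_s_at), with 3 below and 4 above 0. All 7 intervals lay within 0.5 of 0 in either direction, as did 45066 of the 54613 over all probe sets. The limma adjusted p of the 7 ran from 0.713 to 0.992.

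PDPK1, the kinase of the AKT activation loop, had 4 bright and 2 dim probe sets. The brightest, 224986_s_at, read 7.90, 6.93 and 7.06 in control cells and 7.95, 7.58 and 6.999 in miR-224 cells. Experiment 2 was higher by 0.65 with miR-224, whereas experiments 1 and 3 stood at 0.06 and -0.06. The fitted difference was 0.22 ± 0.15 (interval -0.12 to 0.56, limma adjusted p = 0.681).

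A second bright PDPK1 probe set, 32029_at, was higher in each experiment by smaller amounts. It read 5.67, 6.07 and 6.37 in control cells and 5.75, 6.35 and 6.50 in miR-224 cells, and the fitted difference was 0.16 ± 0.10. The probe set 204524_at was the least even of the 21. It read 5.24, 5.86 and 6.04 in control cells and 4.29, 6.65 and 6.10 in miR-224 cells, so that experiment 1 stood at -0.95 and experiment 2 at 0.80. Its fitted value was -0.03 ± 0.27, and 0.43 ± 0.18 without experiment 1 (adjusted p = 0.451). The fourth bright one, 244630_at, stood at 0.19 ± 0.13. In experiment 2 all 4 bright PDPK1 probe sets were higher with miR-224, at 0.65, 0.28, 0.80 and 0.47, and in experiment 3 they stood at -0.06, 0.13, 0.06 and -0.07. With 1 pair of arrays per experiment, the difference between experiments was not tested.

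PIK3R1, which encodes the p85alpha regulatory subunit and its shorter forms, gave different readings at its probe sets. The brightest, 212239_at, read 5.47, 4.68 and 4.36 in control cells and 5.43, 4.73 and 4.48 in miR-224 cells. Here each pair was nearly equal, and the fitted difference was 0.04 ± 0.10 (interval -0.19 to 0.28). The probe set 212240_s_at, just above the median level, read 3.00, 3.49 and 3.65 in control cells and 3.09, 4.31 and 3.96 in miR-224 cells. It was higher in each experiment, most in experiment 2, with differences of 0.09, 0.82 and 0.31, and the groups overlapped.

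The fitted value at 212240_s_at was 0.41 ± 0.15 with an interval of 0.07 to 0.74, and it missed the threshold (limma unadjusted p = 0.023, adjusted p = 0.429). Without experiment 1 it was 0.56 ± 0.16 (adjusted p = 0.231). The remaining probe set, 212249_at, was dim and stood at 0.08 ± 0.17. The names of these probe sets do not say which PIK3R1 transcript each reads, and their places in the transcripts were not analysed here.

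Several probe sets stood apart in experiment 1 in both control and miR-224 cells, though not always by the same amount. The brightest probe sets of PHLPP1, PHLPP2, PDPK1 and PIK3R1 exceeded their level in experiments 2 and 3 when read in experiment 1, by 1.00, 0.69, 0.78 and 0.88 on the log2 scale, averaged over both groups. Other probe sets of the same genes went the other way, with -1.40 for PDPK1 204524_at, -0.61 for PDPK1 32029_at and -0.81 for PIK3R1 212240_s_at. AKT2 203809_s_at and 211453_s_at stood at -1.13 and -0.96, while the probe set of AKT1 stood at 0.06. Of the 21, 10 were displaced by over 0.5 in either direction. A displacement equal in both arrays of an experiment cancels in the paired difference, whereas an unequal one does not. At PDPK1 204524_at, experiment 1 read 5.24 against 5.86 and 6.04 in control cells. In miR-224 cells it read 4.29 against 6.65 and 6.10. How equal the displacement was over the probe sets was not tested.

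The offset was also set beside the difference. The 21 probe sets share arrays, and many share a gene. Over them, Pearson's r between the offset of experiment 1 and the miR-224 difference was -0.43, and over all 54613 it was -0.12. Among the 7137 bright probe sets that were higher in experiment 1 by over 0.5, as those of PHLPP1 and PHLPP2 were, 63.9% were lower with miR-224, 27.1% were lower in all 3 experiments and 14.6% were lower at an unadjusted p under 0.05. Of these 7137 probe sets, 15.3% had a difference at or below that of PHLPP1. Among the 15847 bright probe sets displaced by no more than 0.5, the shares in the same order were 44.7%, 13.1%, 4.81% and 4.70%. Among the 4323 that were lower in experiment 1 by over 0.5 they were 49.9%, 17.5%, 10.6% and 11.7%, so that the last pair of shares was above that of the little displaced probe sets with an offset of either sign. The part of the offset in the PHLPP values was not tested.

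**Figure D3:**
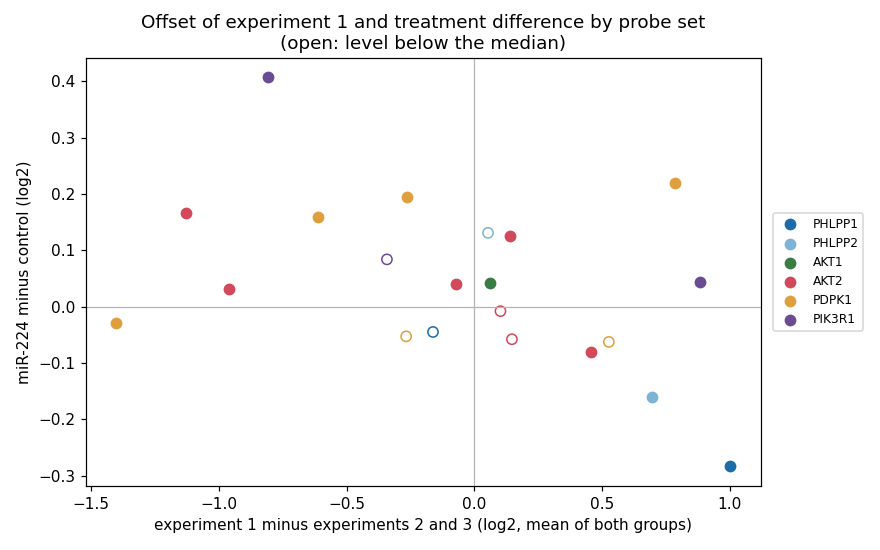
Offset of experiment 1 from experiments 2 and 3 (x axis, log2, mean of control and miR-224 arrays) against the miR-224 minus control difference (y axis, log2) for the 21 probe sets, coloured by gene, with open circles for dim probe sets. PHLPP1 212719_at is at the lower right, with an offset of 1.00 and a difference of -0.28, and PIK3R1 212240_s_at at the upper left, with -0.81 and 0.41.

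The genes most like PHLPP1 over the 6 arrays, by Pearson's r with its bright probe set among 13170 genes, were YIPF4, ATP6V0A2, RNF114, TEX10 and GGCX, each with r at 0.996 to 0.998. Those most like PHLPP2 were RNF128, UAP1L1, TUBD1, FMR1 and DIPK2A, each with r at 0.997 to 0.998. Values this high were common, since 2501 genes exceeded 0.9 with PHLPP1 and 1415 with PHLPP2. All 10 genes were higher in experiment 1, by 0.53 to 1.18, and lower with miR-224, at -0.28 to -0.15. The bright probe sets of both PHLPP genes went the same ways. The 10 genes were picked on these same arrays, so this likeness is part of the choice. The 6 points come from 3 experiments, and PHLPP1 and PHLPP2 correlated at 0.879 with each other.

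The rest of the pathway was read from 8 lists of genes, each gene at its brightest probe set. In these lists 0 genes passed the test over all probe sets in either direction (lowest limma adjusted p = 0.231), as was the case for all 19775 genes (0%). The share of all genes at an unadjusted p under 0.05 was 5.19% lower and 5.05% higher, and 46.8% of all genes had a lower mean. The median difference was 0.01 over all genes and 0.04 over the 6 measured members.

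Other PI3K subunits and lipid phosphatases had 8 of 14 measured genes lower and a median of -0.04. At an unadjusted p under 0.05, 2 were lower, PIK3C2A and the dim PIK3R3 (-0.25), and 0 higher. PIK3C2A, a class II PI3K, stood at -0.48 ± 0.12, with -0.23, -0.70 and -0.50 in experiments 1, 2 and 3. Its 4 other bright probe sets ran from -0.44 to 0.07. PIK3C2B, of the same class, stood at -0.19 ± 0.10, and PIK3CB, the beta catalytic subunit of class I, at -0.18 ± 0.11, with its other bright probe set at 0.12.

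The list of the mTOR complexes and related AGC kinases had 14 of 22 genes lower, with a median of -0.06. At an unadjusted p under 0.05, 2 were lower, RICTOR and PRKCI, and 1 higher, the dim PRR5L (0.45). RICTOR, the subunit that defines mTOR complex 2, read 6.45 ± 0.14 (SD, n = 3) in control cells and 6.12 ± 0.07 in miR-224 cells. It stood at -0.38, -0.13 and -0.47 in experiments 1, 2 and 3, and the fitted difference was -0.33 ± 0.11 (limma adjusted p = 0.415). Its 2 other bright probe sets stood at -0.28 and -0.25. PRKCI, an atypical protein kinase C, stood at -0.26 ± 0.10, and RPS6KB1, the S6 kinase downstream of mTOR complex 1, at 0.31 ± 0.15. RPS6KB1 stood at 0.24, 0.74 and -0.04 in experiments 1, 2 and 3, and its 2 other bright probe sets at 0.004 and 0.34.

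Partners, regulators and other substrates of PHLPP had 7 of 15 genes lower and a median of 0.05, with 0 at an unadjusted p under 0.05. USP1, a deubiquitinase, stood at 0.23 ± 0.11, with another bright probe set at -0.18. CSNK1A1 and BTRC, a kinase and a ubiquitin ligase subunit that take part in PHLPP1 turnover, stood at -0.23 ± 0.11 and -0.23 ± 0.13. The other bright probe sets of CSNK1A1 ran from -1.07 to -0.11.

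The other PPM phosphatases had 9 of 16 genes lower and a median of -0.007. With an unadjusted p under 0.05 there were 0 lower and 3 higher, PPM1A, PPM1M and the dim PPM1L (0.39). PPM1A stood at 0.47 ± 0.16, with 0.04, 0.95 and 0.41 in experiments 1, 2 and 3 and with other bright probe sets at -0.03 and 0.10. PPM1M stood at 0.33 ± 0.12, and PPM1D, a phosphatase of the p53 response, at -0.30 ± 0.13. PP2A, which removes the activation loop phosphate of AKT, had 8 of 16 subunit genes lower and a median of -0.007, with 1 lower and 0 higher at that level. That gene was the scaffold subunit PPP2R1B at -0.76 ± 0.14 (limma adjusted p = 0.233), and its other bright probe sets ran from -0.32 to -0.04. The B subunits PPP2R2A and PPP2R5D stood at -0.20 ± 0.11 and 0.17 ± 0.12, with the other bright probe set of PPP2R5D at -0.07.

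AKT substrates had 15 of 24 genes lower and a median of -0.02. At an unadjusted p under 0.05, 6 of 24 were lower and 1 higher, FOXO3 at 0.45. Of the lower ones, MAP3K5, TBC1D1 and TSC2 stood at -0.33, -0.29 and -0.26. CDKN1A, the gene of the CDK inhibitor p21, stood at -0.95 ± 0.15 (limma adjusted p = 0.231), GSK3B, a kinase that AKT inhibits, at -0.44 ± 0.10 and ACLY, which makes cytosolic acetyl-CoA, at -0.46 ± 0.13. The other bright probe sets of GSK3B ran from -0.63 to 0.09 and those of ACLY from -0.44 to -0.35. CDKN1A, GSK3B and PPP2R1B have been reported as miR-224 targets, and their values here were known when the lists were written.

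Receptors and adaptors upstream of PI3K had 12 of 23 genes lower and a median of -0.01, and FOXO target genes, which AKT represses through the FOXO factors, had 17 of 26 lower and a median of -0.03. In both lists 0 genes had an unadjusted p under 0.05. The transcriptional repressor gene BCL6 stood at -0.25 ± 0.12, RBL2, of the RB family, at -0.22 ± 0.13 and CITED2 at 0.25 ± 0.16. Of the upstream genes, PDGFRB stood at 0.23 ± 0.11, IRS4 at -0.19 ± 0.11 and SOS2, a RAS exchange factor, at -0.19 ± 0.12, with its other bright probe set at 0.001.

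The list medians were small beside their movement when an experiment was left out. Without experiment 3 the median of the FOXO targets was 0.034, that of the AKT substrates 0.015 and that of the PP2A subunits 0.049, and without experiment 2 they were -0.10, -0.090 and -0.095. The median of the PPM phosphatases was 0.061 without experiment 1 and 0.085 without experiment 2. That of the other PI3K subunits and lipid phosphatases was 0.020 without experiment 2, and that of the PHLPP partners was -0.001 without experiment 1 and -0.017 without experiment 3. With experiments left out, the medians stayed below 0 for the mTOR list (-0.083 to -0.048) and the upstream receptors and adaptors (-0.032 to -0.012).

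**Figure D4:**
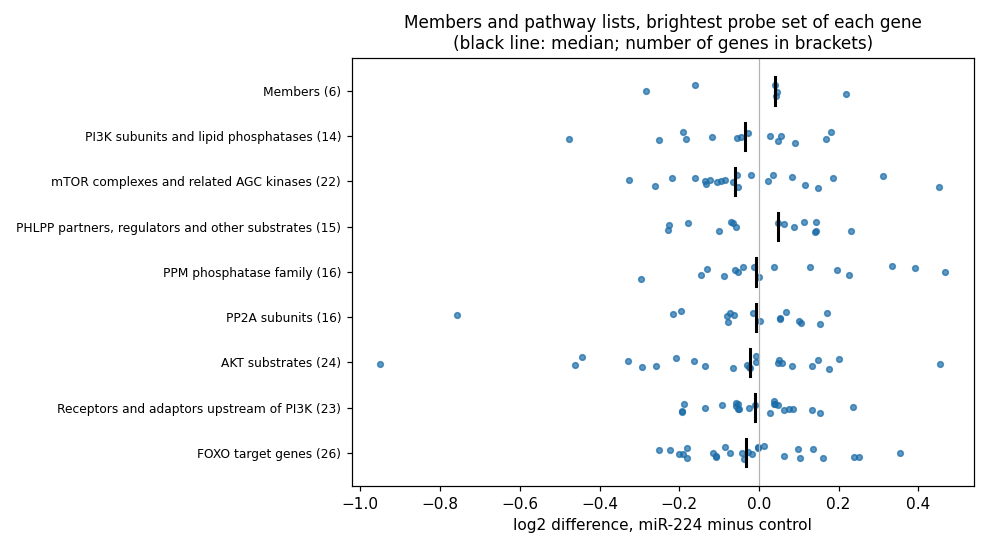
Log2 difference, miR-224 minus control (x axis), of the 6 measured members and of 8 lists of pathway genes, each point being a gene at its brightest probe set and the black line the median. Medians lie between -0.06 and 0.05, and the points farthest from 0 are CDKN1A at -0.95 and PPP2R1B at -0.76.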

How the data were processed

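Total RNA of 6 HCT116 cultures was measured on Affymetrix arrays with 54675 probe sets. The authors made the values with RMA and with Partek, per the submitters' processing notes, in versions not given in the sources used here. The deposited values were read as log2 values: they ran from 1.47 to 13.6, and base 2 is usual for RMA but not stated. RMA scaling removes a shift shared by most genes. Of 54613 probe sets without the 62 controls, 41091 had 1 gene symbol, 1801 several and 11721 none.

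Differences were fitted with limma 3.58.1 in R 4.3.3 (lmFit, eBayes, two-sided, Benjamini-Hochberg over 54613 probe sets, threshold 0.05) with experiment as a block, since the series text gives 3 pairs. It leaves 2 residual degrees of freedom, and standard errors and 95% intervals draw on variances pooled over probe sets. Deviations from group means correlated at 0.902, 0.734 and 0.783 between same-numbered arrays and at -0.777 to 0.474 between others. The value of 0.474 was between experiments 2 and 3. Because each group of 3 was centred, high values for some pairs force lower ones elsewhere. The block therefore rests on the series text and not on these correlations.

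In simulated data with 200 of 54613 probe sets changed, the blocked fit recovered 100% of changes of 1 or 2 (log2) with 23 false calls. That is more false calls than the threshold implies. The simulated noise was independent and normal, with the pooled variances of the fit, so this recovery cannot be carried over to the arrays. In the arrays, differences of 1.31 (RARA) and -1.22 (NFATC2IP) were not called (limma adjusted p = 0.0721 for both). The number of arrays limits the precision.

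From each pathway list the text names the 3 bright genes with the smallest unadjusted p and any other gene under 0.05. For PHLPP1 and PHLPP2 it names the 5 most correlated genes. The lists, like the members, were chosen with earlier results of these data known. Figures were drawn with matplotlib 3.10.9.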

Additional observations from a re-analysis of the deposited data

How the results depend on the processing

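Of the member probe sets and genes, 0 passed the threshold in the main analysis and under the 9 alternatives run, which were no block, each experiment left out, an intensity trend with robust variances, bright probe sets only, quantile normalization again, median centring and averaging the probe sets of each gene. The lowest adjusted p of limma among them was 0.231 (PIK3R1 212240_s_at without experiment 1). Without the block for pairing, the standard error of PHLPP1 212719_at was 0.41 in place of 0.11 and that of PHLPP2 213407_at 0.38 in place of 0.12, and the count at an unadjusted p under 0.05 over all probe sets was 1067 in place of 5352. The count over all probe sets was 28 with the trend and robust variances (0.0513%) and 0 to 137 with experiments left out, 137 being without experiment 1 (0.251%). With 1 probe set a gene it was 0. The median over the member genes, 0.04, was -0.054 to 0.022 with experiments left out and negative only without experiment 1. PHLPP1 212719_at ranged from -0.36 to -0.24 and PHLPP2 213407_at from -0.25 to -0.03 over the alternatives, and the mean of all probe sets of the gene was -0.16 for PHLPP1 and -0.01 for PHLPP2. Among the pathway lists, the median also turned sign after quantile normalization for the other PI3K subunits (0.0096), AKT substrates (0.021) and PP2A subunits (0.012), with bright probe sets only for the PP2A subunits (0.0014), and with the mean of all probe sets for the PI3K subunits (0.0087), the PPM phosphatases (0.032) and the upstream genes (0.0080).

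Of 167 member values under alternatives, 10 had the other sign. PDPK1 204524_at was 0.047 after quantile normalization and -0.44 to 0.43 with experiments left out. The others turned only with an experiment left out. Without experiment 1 the sign turned at AKT1 207163_s_at (-0.040 to 0.12 over the 3 experiments left out), AKT2 225471_s_at (-0.069 to 0.18), AKT2 236664_at (-0.094 to 0.31), AKT2 1560689_s_at (-0.16 to 0.15) and PDPK1 244629_s_at (-0.20 to 0.051), as well as PDPK1 204524_at. Without experiment 2 it turned at AKT2 203808_at (-0.13 to 0.030) and PIK3R1 212249_at (-0.19 to 0.27), and without experiment 3 at PHLPP2 214944_at (-0.15 to 0.29). Fits without an experiment have 1 residual degree of freedom.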
